A study of Mus musculus with 22 samples.

Results

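The type I interferon response genes described here were 47 genes chosen by name, out of 47311 genes with a transcript in the deposited tables. They fell into 7 groups by role, namely 3 transcription factors, 5 sensors of foreign or misplaced nucleic acid, 4 genes of the IFIT family, 6 of the OAS family, 9 of ISG15, its relatives among the ubiquitin enzymes and the ADP-ribose enzymes, 8 GTPases and 12 other effectors. RNA was measured in 22 libraries of cells sorted from mouse bone marrow. WT mice were Arid1a f/f;Mx1-Cre- and Arid1a KO mice were Arid1a f/f;Mx1-Cre+ on a C57BL/6 background, and both genotypes received 5 doses of poly(I:C) at an age of 8 to 14 weeks. Common myeloid progenitors (CMP), granulocyte-macrophage progenitors (GMP) and megakaryocyte-erythroid progenitors (MEP) came from 3 WT mice (300, 305 and 309) and 3 KO mice (301, 304 and 308), each of which gave all 3 populations. Long-term hematopoietic stem cells (LT-HSC) gave 2 WT samples (S245 and S269) and 2 KO samples (S244 and S270), not stated to be single mice. Cells were sorted 4 weeks after poly(I:C).

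Type I interferons are cytokines made by cells that detect viral nucleic acid. They bind the receptor IFNAR on the same or neighbouring cells, and its kinases JAK1 and TYK2 phosphorylate transcription factors such as STAT2, which acts with IRF9 in the complex ISGF3. ISGF3 enters the nucleus and binds a DNA element called ISRE before many genes, whose products block the entry, translation and replication of viruses. In bone marrow, a pulse of type I interferon is known to bring quiescent stem cells into cycle, and poly(I:C), a synthetic double-stranded RNA, is a strong inducer of it. The Mx1 promoter that drives Cre in these mice is itself interferon-inducible. Both genotypes had received poly(I:C), but only KO mice carried Cre, so that the deletion and the presence of Cre cannot be told apart in any comparison below.

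The libraries held 40804031 to 65930737 estimated counts on genes. Arid1a, which encodes a DNA-binding subunit of the BAF chromatin remodelling complex, read 451, 426 and 448 CPM (counts scaled to a common library total) in WT CMP and 402, 365 and 367 in KO CMP, and it lay below every WT library in all 4 populations (log2 fold change -0.22 in CMP, -0.40 in GMP, -0.14 in MEP and -1.14 in LT-HSC). Only exon 9 is flanked by loxP sites, so a sum over the whole gene does not measure the deletion. The 6 marker genes of stem cells summed to 798 to 1030 TPM (scaled likewise and per transcript length) in WT LT-HSC and to 133 or less in every WT precursor library. The 6 of MEP summed to 4596 to 5930 TPM in WT MEP against 999 or less in WT CMP, but to 1354 to 2839 in WT LT-HSC. The 4 erythroid markers summed to 908 to 1754 TPM in WT LT-HSC and 554 to 739 in WT MEP. The LT-HSC libraries thus also held RNA of MEP and erythroid marker genes. Of the 6 precursor mice, WT 305 and KO 304 stood apart. Their libraries held 72 to 199 counts on Y-linked genes, where the other 4 mice had 9034 to 14118, and WT 305 held 44268 to 86341 counts of Xist while KO 304 held 38 to 77. Counts of members without these mice are given beside the main ones. In these bulk samples, fewer cells of a type and less RNA per cell cannot be told apart.

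The bases just before the transcription start were searched for the ISRE. Its core, GAAANNGAAA on either strand, lay between 250 bases before and 50 bases after a RefSeq start site in 21 of 37 members with such a window (56.8%), against 1079 of 27025 genes (3.99%). Matches may overlap each other. The motif was found in 6 of 6 GTPases, 3 of 3 sensors, 3 of 4 IFIT genes and 3 of 5 OAS genes, but in 1 of 3 transcription factors, 2 of 6 genes of the ISG15 group and 3 of 10 other effectors with a window. The 10 members without a window were Usp18, Oas2, Mx1, Mx2, Ifi27, Dhx58, Rtp4, Zbp1, Parp9 and Parp14. The 150 bases before the start are given for 5 members with a match (in capitals) and for 2 without one, Irf7 and Oasl2, which were among the largest rises reported below (RefSeq, GRCm38.p6, 5′ to 3′ on the strand of the gene).
Ifit1 (chr19:34640739-34640888, plus strand): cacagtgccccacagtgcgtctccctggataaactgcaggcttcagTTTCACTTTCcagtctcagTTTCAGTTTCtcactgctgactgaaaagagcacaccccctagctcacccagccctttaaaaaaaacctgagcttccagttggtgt
Isg15 (chr4:156200819-156200968, minus strand): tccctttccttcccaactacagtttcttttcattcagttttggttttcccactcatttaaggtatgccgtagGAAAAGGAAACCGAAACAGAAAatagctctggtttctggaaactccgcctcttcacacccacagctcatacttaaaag
Oas1a (chr5:120907526-120907675, minus strand): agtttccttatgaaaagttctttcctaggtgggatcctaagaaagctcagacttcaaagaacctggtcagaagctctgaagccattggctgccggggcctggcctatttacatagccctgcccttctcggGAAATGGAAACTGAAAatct
Igtp (chr11:58199406-58199555, plus strand): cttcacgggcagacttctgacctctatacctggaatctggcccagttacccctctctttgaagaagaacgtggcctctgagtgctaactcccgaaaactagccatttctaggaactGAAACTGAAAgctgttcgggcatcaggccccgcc
Gbp2 (chr3:142620513-142620662, plus strand): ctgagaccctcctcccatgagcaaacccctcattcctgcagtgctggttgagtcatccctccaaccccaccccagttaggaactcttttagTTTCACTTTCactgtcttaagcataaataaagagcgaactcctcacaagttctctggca
Irf7 (chr7:141266425-141266574, minus strand): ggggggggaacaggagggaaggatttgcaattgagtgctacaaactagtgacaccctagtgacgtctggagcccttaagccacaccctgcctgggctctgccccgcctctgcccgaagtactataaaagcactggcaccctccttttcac
Oasl2 (chr5:114896784-114896933, plus strand): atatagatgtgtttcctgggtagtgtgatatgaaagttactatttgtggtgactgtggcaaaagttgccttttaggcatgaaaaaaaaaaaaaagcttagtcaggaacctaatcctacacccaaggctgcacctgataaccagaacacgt
The 3 matches before Isg15 overlapped in 1 run of 22 bases, and the 2 before Oas1a in 1 run of 16. Before Ifit1 and Gbp2 the motif stood on the other strand. A match describes the letters and is no evidence of binding. Across the tested members with and without the motif, the median log2 fold change of KO against WT was 0.67 (21 genes) and 0.50 (16) in CMP. It was 0.43 (19) and 0.20 (16) for GMP and 0.98 (20) and 0.53 (16) for MEP, which is a description without a test.

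In CMP, which give rise to both GMP and MEP, the interferon response genes were higher in KO than in WT mice across all 7 roles. Of the 47 members tested, 37 rose, 0 fell and 10 did not pass an adjusted p of 0.1 in the quasi-likelihood test of edgeR, adjusted by Benjamini-Hochberg over all genes. Among all 17214 genes tested, 10.6% rose and 12.8% fell. The median log2 fold change of the members was 0.70, with a range of 0.02 to 3.58, while that of all genes was 0.00. In 38 members every KO library lay above every WT library, as it did for 15.7% of all genes.

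The 3 transcription factors rose in KO CMP. Irf7 (chr7:141262706-141266481, minus strand), the regulator that amplifies interferon production once it has been induced, read 9.74, 16.8 and 7.58 CPM in the WT mice and 35.2, 45 and 36.2 in the KO mice. The lowest KO mouse was thus well above the highest WT mouse, 305, and the log2 fold change was 1.76 ± 0.26 (SE, 3 mice per genotype, edgeR adjusted p = 0.00195). The partners in ISGF3 had smaller log2 fold changes. Stat2 was 48.4, 54.3 and 50.1 CPM in WT and 77.1, 81.5 and 69.6 in KO (log2 fold change 0.58 ± 0.08, edgeR adjusted p = 0.00113). Irf9 was 63, 83.1 and 62 CPM in WT and 100, 109 and 99.6 in KO (0.57 ± 0.11, edgeR adjusted p = 0.00743). Neither gene overlapped between the genotypes.

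All 5 sensors rose in KO CMP, by log2 fold changes between 0.46 and 1.01. Eif2ak2 encodes PKR, the kinase that halts translation when it meets double-stranded RNA. It read 66.5, 71.1 and 64.8 CPM in WT and 98.4, 98.5 and 93.7 in KO, with little spread within either genotype, and its log2 fold change was 0.52 ± 0.06 (edgeR adjusted p = 0.000413). Ifih1 encodes MDA5, the cytoplasmic receptor for long double-stranded RNA such as poly(I:C). It was 36.9, 39.3 and 28.8 CPM in WT and 52.2, 64.6 and 50.8 in KO (0.67 ± 0.13, edgeR adjusted p = 0.00787). Its relatives Ddx58 (RIG-I, a receptor for RNA with a 5′ triphosphate) and Dhx58 (LGP2, which modulates both) rose by 0.46 ± 0.11 and 0.73 ± 0.15 (edgeR adjusted p = 0.0236 and 0.012). Zbp1, a sensor of Z-form nucleic acid that can start necroptosis, was 2.83, 4.2 and 1.77 CPM in WT and 4.81, 7.93 and 5.11 in KO. Its log2 fold change was 1.01 ± 0.31 (edgeR adjusted p = 0.0577), and the call was lost without mouse 304, 300 or 309 (adjusted p 0.165, 0.14 and 0.139).

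The largest rises in CMP were in the IFIT genes, whose products hold back translation of foreign RNA and which lie side by side on chromosome 19 (Ifit1 at chr19:34640871-34650009 of GRCm38). Ifit1 was 1.53, 4.84 and 1.72 CPM in WT and 8.85, 12.6 and 10.2 in KO, a log2 fold change of 1.96 ± 0.40 (edgeR adjusted p = 0.01). Ifit3 was 0.223, 0.754 and 0.354 CPM in WT and 2.37, 2.76 and 2.2 in KO (2.45 ± 0.39, edgeR adjusted p = 0.00303). In both genes mouse 305 was the highest of the WT mice and still lay below every KO mouse. Ifit3b, its near-copy, had the largest log2 fold change of the members (3.58 ± 0.58, edgeR adjusted p = 0.00321) at 0 to 0.0859 CPM in WT and 0.612 to 0.867 in KO. Of the 31-base words of Ifit3 transcripts, 61.8% occur in Ifit3b, so the division of counts between both is uncertain. Ifit2, which was 34.7 to 39.5 CPM in WT and 39.1 to 42.7 in KO, did not pass the test (0.15 ± 0.07, edgeR adjusted p = 0.219).

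The OAS proteins sense double-stranded RNA and make the 2′-5′ oligoadenylates that activate RNase L, or, in the case of the OAS-like proteins, act without that product. Of 6 OAS genes in CMP, 5 rose and Oas1g did not pass. Oasl1 was 5.19, 9.71 and 4.35 CPM in WT and 17.7, 21.7 and 15.2 in KO (log2 fold change 1.5 ± 0.28, edgeR adjusted p = 0.00639). Oasl2 was 17.4, 26.2 and 15.8 CPM in WT and 44.5, 57.7 and 46.3 in KO (1.32 ± 0.19, edgeR adjusted p = 0.00164). The genotypes were apart in both genes. Oas1a, Oas2 and Oas3 rose by 0.78, 1.19 and 0.85, and each of these calls was lost without mouse 301, 304, 300 or 309 (adjusted p 0.108 to 0.203). Of the words of Oas1a, 68.7% occur in Oas1g, so their division is uncertain as well.

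Of the 9 genes of the ISG15 group, 8 rose in CMP. ISG15 is a small protein that is attached to others as ubiquitin is, HERC6 attaches it in mice, USP18 removes it and also blocks the interferon receptor, and PARP9 and DTX3L form a pair of ADP-ribose and ubiquitin enzymes. Isg15 itself was 3.04, 7.91 and 2.6 CPM in WT and 8.39, 13.6 and 9.64 in KO. Mouse 305 nearly reached KO mouse 301, and the log2 fold change was 1.22 ± 0.39 (edgeR adjusted p = 0.0662). That call was lost without any one of 301, 304, 308, 300 or 309 (adjusted p 0.107 to 0.179). Usp18 was 4.6, 10.2 and 4.16 CPM in WT and 12.9, 17.4 and 13.6 in KO (1.21 ± 0.31, edgeR adjusted p = 0.028). Herc6, Trim25, Trim30a, Parp9, Dtx3l and Parp14 rose by 0.16 to 0.75, and Parp12 did not pass (0.30 ± 0.12, edgeR adjusted p = 0.132).

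Among the GTPases, 6 of 8 rose in CMP. Mx1 and Mx2 trap viral nucleocapsids, although the Mx1 protein is defective in most laboratory strains and Mx2 is annotated as a polymorphic pseudogene. Mx1 was 1.27, 4.43 and 2.22 CPM in WT and 7.16, 10.1 and 8.27 in KO (log2 fold change 1.69 ± 0.38, edgeR adjusted p = 0.0166), and Mx2 was 1.36, 3.48 and 1.23 CPM in WT and 6.21, 6.36 and 5.26 in KO (1.55 ± 0.36, edgeR adjusted p = 0.0192). All KO mice exceeded all WT mice in both. The guanylate-binding proteins and immunity-related GTPases, which attack the vacuoles of intracellular pathogens, moved less. Gbp7, Igtp, Irgm1 and Irgm2 rose by 0.42 to 0.70, while Gbp2 (0.09 ± 0.14) and Gbp3 (0.02 ± 0.11) did not pass (edgeR adjusted p = 0.728 and 0.954). Igtp shares 15.9% of its words with Irgm2, which it overlaps on the same strand of chromosome 11.

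Of the 12 other effectors, 7 rose in CMP. Rsad2 (viperin, which makes a chain-terminating nucleotide) was 6.96, 7.66 and 5.76 CPM in WT and 16.7, 21.3 and 15.9 in KO (log2 fold change 1.40 ± 0.15, edgeR adjusted p = 0.000415). Rtp4 rose by 1.16 ± 0.29, Ifi44 by 1.14 ± 0.37, Isg20, an exonuclease, by 0.94 ± 0.16 and Samd9l, a translation repressor that limits stem cell growth, by 0.72 ± 0.08 (edgeR adjusted p = 0.0246, 0.0668, 0.00378 and 0.000454). The 3 most abundant effectors of WT CMP by TPM did not pass the test. Ifitm3, which blocks fusion of viruses with endosomes, was 71.4, 98.1 and 63.4 CPM in WT and 78.8, 120 and 87.9 in KO, with overlap (0.30 ± 0.19, edgeR adjusted p = 0.343). Ifi27 and Lgals3bp were at 0.34 ± 0.18 and 0.33 ± 0.12 (edgeR adjusted p = 0.247 and 0.111).

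In CMP, the 4 erythroid markers also moved with genotype, from 88.7 to 129 TPM summed in WT to 559 to 682 in KO, and all 4 rose. The 6 markers of LT-HSC, the population with the highest median level of the members (in libraries from another kit), went from 106 to 133 TPM in WT to 147 to 172 in KO, with 3 higher (Slamf1, Mecom and Hoxa9, by 1.65, 1.11 and 0.45) and 1 lower. Macrophage and monocyte markers summed to 122 to 217 TPM in WT and 58.8 to 73.8 in KO, with none of the 9 at 0 in all libraries. Most of that sum was Ly6c2, at 74.6 to 137 TPM in WT and 14.5 to 18.4 in KO, and 2 of the 9 fell (Ly6c2 and Cd68) while 2 rose, Adgre1 by 1.51 and Fcgr1 by 1.23 (edgeR adjusted p = 0.000998 and 0.0176). Of 7 neutrophil markers 5 fell, as did 4 of 6 markers of CMP and GMP and all 4 of basophils and mast cells (100 to 262 TPM in WT and 62 to 76.6 in KO). Plasmacytoid dendritic cells are the strongest makers of type I interferon. Their 7 markers, which include the member Bst2, summed to 140 to 173 TPM in WT and 183 to 230 in KO. Of the 6 tested only Cox6a2 passed, at 3.65 to 5.49 TPM in WT and 13.6 to 45.6 in KO (log2 fold change 2.40, edgeR adjusted p = 0.00586). Siglech, a surface receptor of these cells, was 0.764 to 2.31 TPM in WT and 1.44 to 2.63 in KO (log2 fold change 0.47, edgeR adjusted p = 0.458). The part of these markers in the result was not tested. The calls of Herc6, Trim25, Ifi35 and Ifi44 were lost without at least 1 of the mice (adjusted p 0.103 to 0.26), and 28 of the 37 rises held without any one mouse. With mice 305 and 304 left out together, 41 members rose and 0 fell in CMP, and 1685 of 17206 genes rose.

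**Figure D1:**
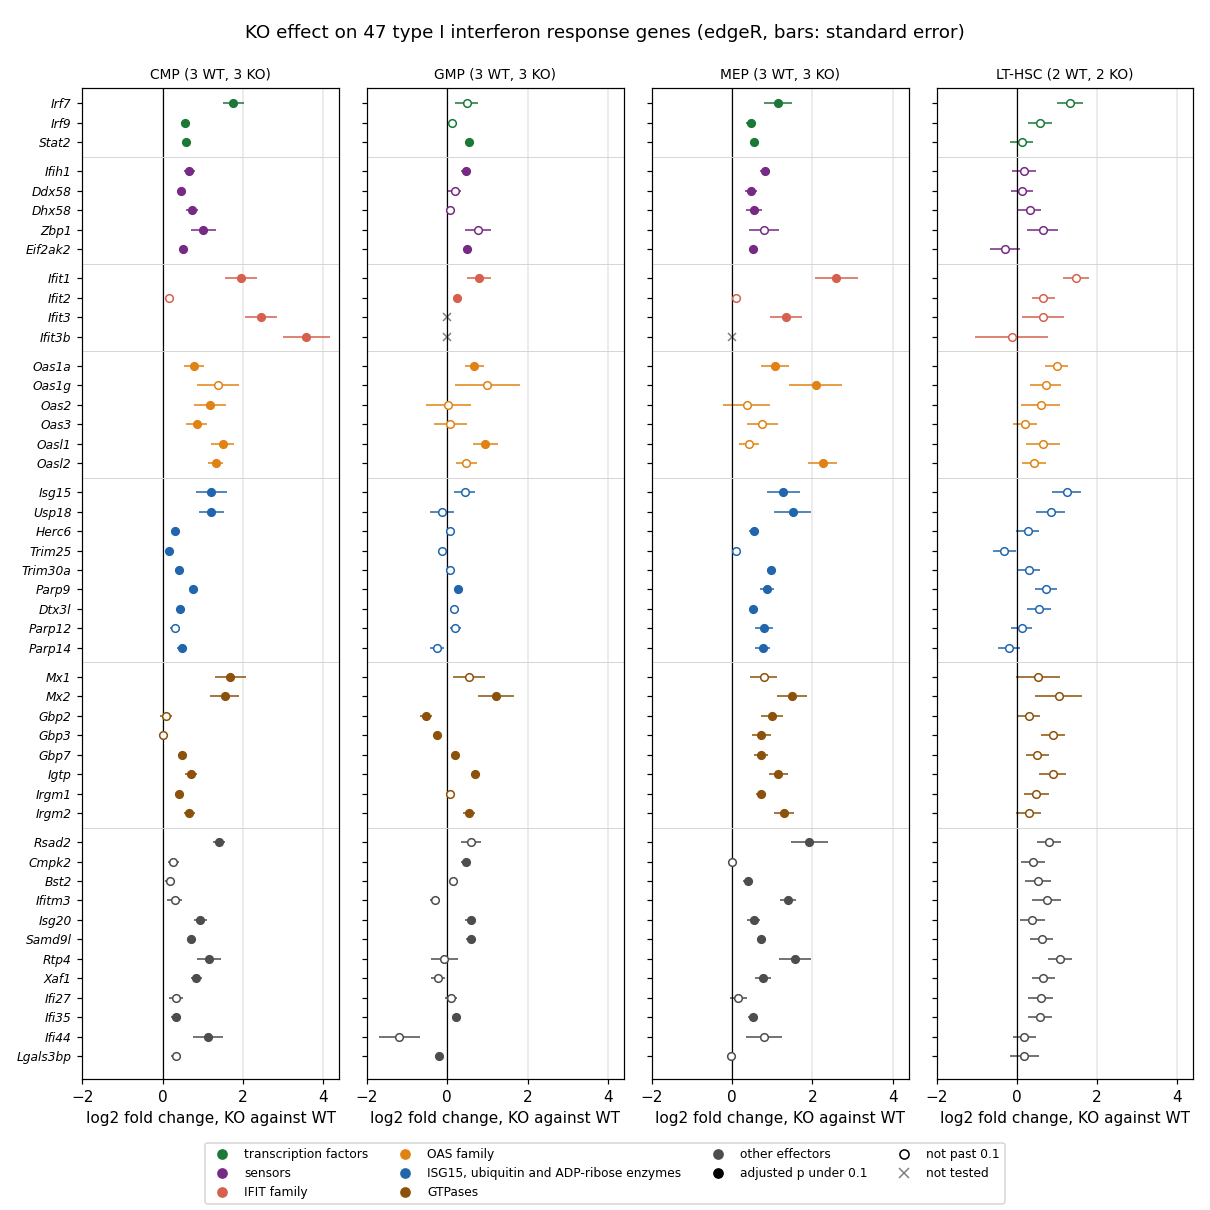
Log2 fold change of KO against WT (horizontal axis) for the 47 genes (rows, coloured by role) in CMP, GMP, MEP and LT-HSC, with bars of 1 standard error. Filled points passed an adjusted p of 0.1 in edgeR and crosses were not tested. In CMP and MEP 37 and 35 genes lie to the right of 0 as filled points and 0 to the left, in GMP 16 and 3, and in LT-HSC none is filled.

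In MEP, the precursors of red cells and platelets, most interferon response genes rose as well. Of 46 members tested, 35 rose, 0 fell and 11 did not pass the edgeR test, while 14% of 15777 genes rose and 15.4% fell. Ifit3b was under the filter for low counts. The median log2 fold change of the members was 0.77, from -0.03 to 2.60, against 0.00 for all genes. In 35 members every KO library lay above every WT library, as for 18.7% of all genes.

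All 3 transcription factors rose in MEP. Irf7 was 14.4, 33.1 and 11.3 CPM in WT and 37.7, 51.1 and 41.4 in KO. Mouse 305 came close to KO mouse 301, and the log2 fold change of 1.15 ± 0.35 (edgeR adjusted p = 0.0506) was lost as a call without mouse 304, 300 or 309 (adjusted p 0.138, 0.152 and 0.122). Stat2 (0.55 ± 0.08, edgeR adjusted p = 0.00181) and Irf9 (0.47 ± 0.12, edgeR adjusted p = 0.0263) kept their calls without any one mouse. Among the sensors, Ifih1 was 31.7, 44.8 and 32.8 CPM in WT and 60, 67.8 and 65.3 in KO (0.82 ± 0.13, edgeR adjusted p = 0.00286). Eif2ak2 was 62.7, 85.9 and 68.9 CPM in WT and 104, 104 and 102 in KO (0.52 ± 0.10, edgeR adjusted p = 0.00938). The genotypes did not overlap in either. Ddx58 (0.47 ± 0.15) and Dhx58 (0.55 ± 0.20) rose too (edgeR adjusted p = 0.0624 and 0.0897), and both calls were lost without mouse 304, 308, 300 or 309, and that of Dhx58 also without 301. Zbp1 was 0.648 to 1.25 CPM in WT and 0.903 to 2.2 in KO and did not pass (0.80 ± 0.38, edgeR adjusted p = 0.185).

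The 2 largest rises in MEP were in Ifit1 and Oasl2. Ifit1 was 0.67, 2.71 and 0.6 CPM in WT and 6.81, 10.6 and 6.49 in KO, a fold of 6.08 (log2 fold change 2.60 ± 0.54, edgeR adjusted p = 0.011). Oasl2 was 4.12, 7.53 and 2.59 CPM in WT and 18.1, 29.7 and 20.4 in KO (2.26 ± 0.36, edgeR adjusted p = 0.00311). In both, the lowest KO mouse had more than the highest WT mouse by a wide margin. Oas1g, at 0.48 to 2.57 CPM in WT and 3.28 to 8.29 in KO, rose by 2.08 ± 0.66 (edgeR adjusted p = 0.0585), but the call was lost without mouse 304, 300 or 309 (adjusted p 0.189, 0.158 and 0.159). Oas1a rose as well, while Oas2 (0.36 ± 0.58), Oas3 (0.75 ± 0.39) and Oasl1 (0.42 ± 0.24) did not pass (edgeR adjusted p = 0.721, 0.217 and 0.273).

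In the ISG15 group 8 of 9 genes rose in MEP, and Trim25 did not pass (0.10 ± 0.11, edgeR adjusted p = 0.584). Trim30a, a ubiquitin ligase that restrains Toll-like receptor signalling and was picked here after its values were seen, had the lowest adjusted p of all members. It was 20.1, 24.7 and 21.2 CPM in WT and 43.6, 43.3 and 41.6 in KO, so that each KO mouse held nearly the same level (log2 fold change 0.96 ± 0.08, edgeR adjusted p = 0.000182). Isg15 was 3.68, 8.92 and 2.66 CPM in WT and 11.1, 15.3 and 10.7 in KO (1.28 ± 0.40, edgeR adjusted p = 0.0532). Its call was lost without mouse 301, 304, 300 or 309 (adjusted p 0.106 to 0.158), and that of Usp18 (1.51 ± 0.46, edgeR adjusted p = 0.0494) without 304, 300 or 309.

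Of the 8 GTPases 7 rose in MEP, with Mx1 not past the test (0.79 ± 0.34, edgeR adjusted p = 0.146). Igtp was 17.8, 24 and 11.3 CPM in WT and 32.8, 45.3 and 40 in KO (log2 fold change 1.15 ± 0.24, edgeR adjusted p = 0.0114). Gbp2, which did not pass in CMP, was 5.25, 3.11 and 3.31 CPM in WT and 5.63, 10.5 and 7.2 in KO. Its lowest KO mouse barely exceeded its highest WT mouse, and the log2 fold change of 0.99 ± 0.28 (edgeR adjusted p = 0.0366) was lost as a call without mouse 304 or 309 (adjusted p 0.124 in each case). Among the other effectors 8 of 12 rose. Rsad2 was 2.5, 8 and 2.16 CPM in WT and 15.5, 19.3 and 12.8 in KO (1.92 ± 0.46, edgeR adjusted p = 0.0193), and Rtp4 was 3.59, 9.58 and 2.95 CPM in WT and 15.8, 18.4 and 13.4 in KO (1.57 ± 0.40, edgeR adjusted p = 0.025). Ifitm3 was 12.4, 17.1 and 9.62 CPM in WT and 33.2, 40 and 29.2 in KO (1.39 ± 0.20, edgeR adjusted p = 0.00219). Again every KO mouse exceeded every WT mouse in these 3 genes. Cmpk2 (0.00 ± 0.09), Ifi27 (0.16 ± 0.20) and Lgals3bp (-0.03 ± 0.09) did not pass (edgeR adjusted p = 0.997, 0.634 and 0.839).

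The calls of Oas1a, Ifit3, Gbp3, Bst2, Isg20 and Parp12 in MEP were lost without at least 1 of the mice (adjusted p 0.108 to 0.17), and 22 of the 35 rises held without any one mouse. The number of rises was 22 without mouse 304, 23 without 309, 24 without 300 and 42 without 305. Over all genes 1616 of 16148, 1815 of 16214, 1665 of 16159 and 2521 of 16351 rose in these fits. With 305 and 304 left out together, 38 members rose and 0 fell, and 2242 of 16121 genes rose. The 6 MEP markers summed to 4596 to 5930 TPM in WT MEP and 2939 to 3622 in KO MEP. Of these, 2 were higher (Klf1 and Epor) and 1 lower (Car1, log2 fold change -1.09). Erythroid markers summed to 554 to 739 TPM in WT MEP and 1086 to 1358 in KO MEP, and all 4 rose. The LT-HSC markers summed to 15.2 to 28.3 TPM in WT and 33.6 to 34.7 in KO, with 3 of 6 higher, Slamf1 by 2.34, Mecom by 1.61 and Hoxa9 by 0.53. Megakaryocyte markers summed to 19.3 to 39.5 TPM in WT and 54.4 to 81.4 in KO, with 2 of 4 higher, while 2 of 7 neutrophil and 3 of 4 basophil and mast cell markers fell. The part of these markers in the result was not tested.

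**Figure D2:**
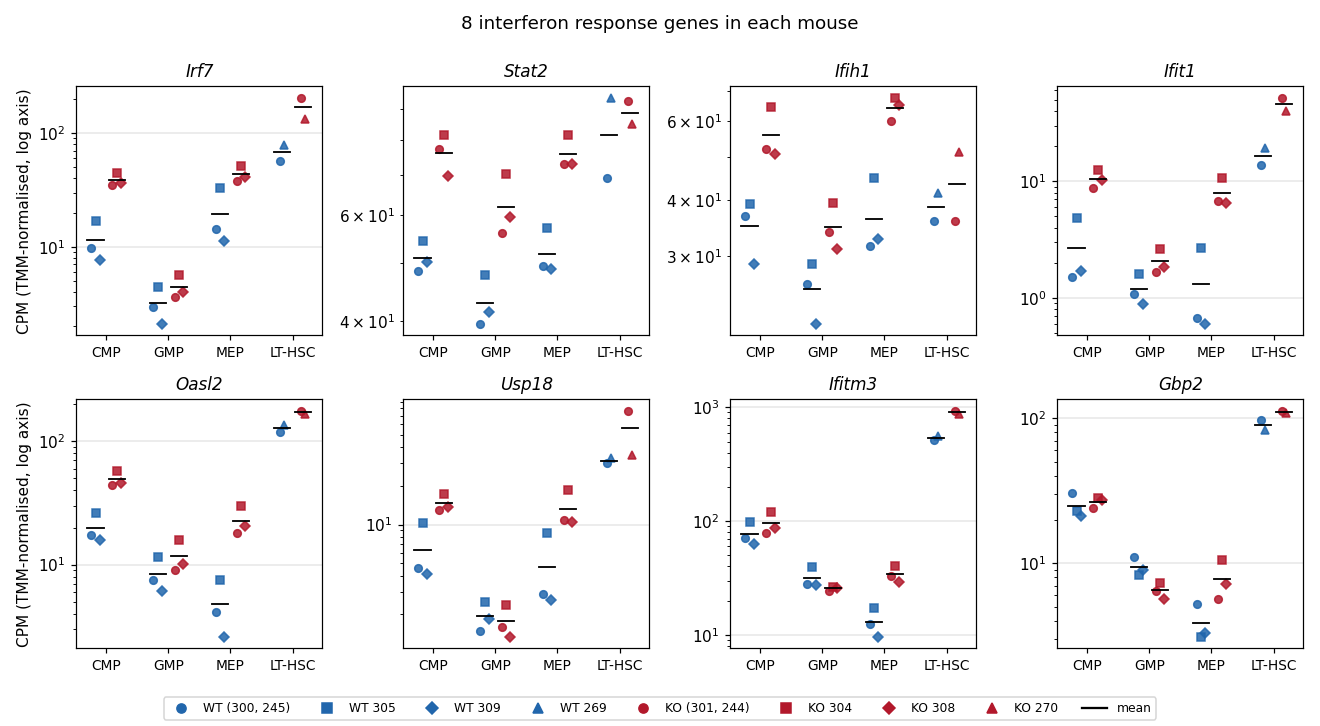
Level of 8 interferon response genes in each mouse or LT-HSC sample, in CPM on a log axis. WT is in blue, KO in red, the mean is a bar and the shape of the point gives the mouse or sample. Irf7, Ifit1 and Oasl2 separate the genotypes in CMP and MEP and overlap or lie closer together in GMP, while Gbp2 in GMP is lower in the KO mice (5.7 to 7.32 CPM) than in the WT mice (8.35 to 11 CPM).

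In GMP, the precursors of neutrophils and monocytes, fewer interferon response genes rose and some fell. Of 45 members tested, 16 rose, 3 fell and 26 did not pass the edgeR test, while 17.5% of 16383 genes rose and 16.3% fell. Ifit3 and Ifit3b were under the filter. The median log2 fold change was 0.20, from -1.19 to 1.22, and 35 members were above 0 and 10 below it. In 14 members every KO library lay above every WT library and in 2 below, which for all genes was 21.5% and 20.8%.

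Stat2 was the only transcription factor to rise in GMP, from 39.5, 47.6 and 41.3 CPM in WT to 55.9, 70.1 and 59.6 in KO, with no overlap (log2 fold change 0.53 ± 0.10, edgeR adjusted p = 0.00449). Irf7 was 2.98, 4.47 and 2.09 CPM in WT and 3.65, 5.67 and 3.98 in KO. WT mouse 305 lay above 2 of the KO mice, and neither Irf7 (0.48 ± 0.28) nor Irf9 (0.12 ± 0.12) passed (edgeR adjusted p = 0.258 and 0.554). Among the sensors Ifih1 was 26.1, 28.8 and 21.2 CPM in WT and 34, 39.4 and 31.2 in KO (0.46 ± 0.12, edgeR adjusted p = 0.021). Eif2ak2 was 56.1, 64.1 and 52.8 CPM in WT and 81.4, 80.9 and 79.5 in KO (0.48 ± 0.08, edgeR adjusted p = 0.00172). The genotypes were apart in both. Ddx58 (0.18 ± 0.16), Dhx58 (0.07 ± 0.11) and Zbp1 (0.76 ± 0.32) did not pass (edgeR adjusted p = 0.482, 0.698 and 0.118).

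Igtp, Isg20 and Samd9l were among the effectors that rose in GMP. Igtp was 19.9, 19.2 and 15 CPM in WT and 27.9, 32 and 28.1 in KO (log2 fold change 0.70 ± 0.11, edgeR adjusted p = 0.00171), Isg20 was 5.46, 5.16 and 4.48 CPM in WT and 7.4, 8.24 and 6.92 in KO (0.58 ± 0.14, edgeR adjusted p = 0.0122), and Samd9l was 24.8, 26.3 and 20.4 CPM in WT and 32, 41.1 and 33.7 in KO (0.58 ± 0.12, edgeR adjusted p = 0.00618). All KO mice were above all WT mice in these genes, and each call held without any one mouse. Ifit1 (0.79 ± 0.29) and Oasl1 (0.95 ± 0.31) rose (edgeR adjusted p = 0.0738 and 0.0522), and both calls were lost without mouse 304, 300 or 309, that of Ifit1 also without 308 and that of Oasl1 also without 301. Cmpk2, a nucleotide kinase next to Rsad2, rose by 0.46 ± 0.11 (edgeR adjusted p = 0.0147), and of the ISG15 group 1 of 9 rose, Parp9 (0.27 ± 0.07, edgeR adjusted p = 0.0157). The call of Parp9 was lost without mouse 309 (adjusted p 0.103).

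The members that fell in GMP were Gbp2, Gbp3 and Lgals3bp. Gbp2 was 11, 8.35 and 8.99 CPM in WT and 6.49, 7.32 and 5.7 in KO. All KO mice lay below all WT mice, and the fall, at a log2 fold change of -0.54 ± 0.15 (edgeR adjusted p = 0.0243), held without any one mouse. Gbp3 was 67.4 to 81.1 CPM in WT and 58.6 to 68 in KO (-0.25 ± 0.09, edgeR adjusted p = 0.0655), and Lgals3bp was 95.8 to 119 in WT and 94.1 to 96.2 in KO (-0.21 ± 0.08, edgeR adjusted p = 0.097). Both overlapped between the genotypes, and both calls were lost without mouse 304, 308 or 305, and that of Lgals3bp also without 301 or 300. Ifitm3 was lower in every KO mouse (24.3 to 26.4 CPM) than in every WT mouse (27.4 to 39.2) without passing the test (-0.30 ± 0.13, edgeR adjusted p = 0.13). Ifi44 had the lowest log2 fold change, -1.19 ± 0.50, at 0.423 to 1.41 CPM in WT and 0.265 to 0.597 in KO (edgeR adjusted p = 0.116).

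The counts in GMP moved with single mice, with a block and with scaling. Of the 16 rises, 7 (Stat2, Ifih1, Eif2ak2, Igtp, Cmpk2, Isg20 and Samd9l) held without any one mouse. The calls of Oas1a, Mx2, Ifit2, Gbp7, Ifi35 and Irgm2 were lost without at least 1 of the mice (adjusted p 0.109 to 0.293), and the number of rises was 10 without 304, 10 without 300, 7 without 309 and 23 without 305. Over all genes 2537 of 16941, 2554 of 16873, 1971 of 16809 and 2545 of 16846 rose in these fits. Without 305 and 304 together 19 members rose and 1 fell, and 2705 of 16526 genes rose. A block was also tried that pairs the mice by the column order of the study's tables, which is no stated pairing. With it 25 members rose and 6 fell (correlation of deviations within the pairs 0.44 to 0.59), and 3719 of 16383 genes rose. On the log2(TPM + 1) scale 8 members and 1168 of 13879 genes rose. The medians of the GTPases (0.37 in edgeR) and of the other effectors (0.11) turned to -0.02 and -0.06 on that scale. Basophil and mast cell markers summed to 733 to 1206 TPM in WT GMP and 116 to 168 in KO GMP, with all 4 lower. Macrophage and monocyte markers summed to 1151 to 1387 TPM in WT and 839 to 1018 in KO. Of these 9, 4 fell (Csf1r, Cd68, Vcam1 and Ly6c2) and 1 rose, Adgre1 by 3.37. Neutrophil markers summed to 162 to 365 TPM in WT and 314 to 1209 in KO, but only 2 of 7 rose (S100a8, at 83.2 to 143 TPM in WT and 209 to 804 in KO, and Camp) and 3 fell, among them Ltf by 2.11 and Retnlg by 2.37. Their part in the result was not tested.

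In LT-HSC, with 2 samples per genotype, 0 of the 47 members passed the edgeR test. Over all genes 18 of 22733 passed (0.0792%, of which 0.0264% higher and 0.0528% lower). At an unadjusted p under 0.05, 12 members were higher in KO and none lower, and 1180 of all genes (5.19%) were under it in either direction. The lowest adjusted p of a member was 0.354. DESeq2 called 2 members higher, and edgeR without the filter for low counts called 3. Of 38182 genes, DESeq2 called 82 higher with an offset for transcript length and 91 without it. EdgeR without the filter called 109 of them higher, against 6 of 22733 in the main fit. The median log2 fold change of the members was 0.56, with 43 above 0 and 4 below, while that of all genes was -0.16. Every KO library lay above every WT library in 30 members and below in 1 (16.9% and 19.4% of all genes).

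The largest log2 fold changes in LT-HSC are given as values. Ifit1 was 13.8 and 19.2 CPM in WT and 52 and 40 in KO (log2 fold change 1.48 ± 0.33, edgeR adjusted p = 0.354). Irf7 was 56.3 and 78.8 CPM in WT and 205 and 133 in KO (1.32 ± 0.33, edgeR adjusted p = 0.464). Isg15 was 16 and 18.8 CPM in WT and 51.8 and 30.5 in KO (1.24 ± 0.36, edgeR adjusted p = 0.623). In all 3 genes KO sample S244 was higher than KO sample S270, and both were above the WT samples. Ifitm3, the most abundant member, was 520 and 561 CPM in WT and 936 and 873 in KO (0.74 ± 0.37, edgeR adjusted p = 0.876). The other transcription factors were at 0.57 ± 0.30 (Irf9) and 0.12 ± 0.29 (Stat2), and the sensors between -0.29 ± 0.38 (Eif2ak2) and 0.64 ± 0.38 (Zbp1). The median of the sensors, 0.17, turned to -0.08 on the log2(TPM + 1) scale. The lowest members were Trim25 (-0.31 ± 0.28), Eif2ak2 and Parp14 (-0.19 ± 0.28). Without WT mouse S269 the test called 15 members higher and 1 lower, and without WT mouse S245 it called 9 higher, where the lone WT mouse is assumed to vary as the KO mice do. Calls rose over all genes as well, to 5.76% higher and 3.40% lower without S269 and 1.18% and 1.23% without S245. Without either KO mouse it called 0. Neutrophil markers summed to 457 to 2547 TPM in the WT libraries and 371 to 395 in the KO libraries, and their part was not tested.

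Side by side, 13 members rose in CMP, GMP and MEP, as did 1.79% of the 18033 genes tested in at least 1 of these populations. They were Stat2, Ifih1, Eif2ak2, Ifit1, Oas1a, Parp9, Mx2, Gbp7, Igtp, Irgm2, Isg20, Samd9l and Ifi35. A further 16 rose in CMP and MEP without passing in GMP (3.03% of all genes), among them Irf7, Irf9, Ddx58, Dhx58, Oasl2, Isg15, Usp18 and Rsad2. Those that rose in CMP alone were 7 (3.57% of all genes; Zbp1, Ifit3b, Oas2, Oas3, Trim25, Mx1 and Ifi44), and those in MEP alone were 6 (5.78%; Oas1g, Parp12, Gbp2, Gbp3, Bst2 and Ifitm3). Ifit2 and Cmpk2 rose in GMP alone (10.8% of all genes), Oasl1 in CMP and GMP (1.76%), and Lgals3bp fell in GMP. Ifi27 passed in none of them.

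Since a gene can pass in one population and miss the threshold in another without a difference between them, the difference of the KO effect was tested within mice over the 18 precursor libraries. The effect was smaller in GMP than in CMP for 24 members and larger for 0, where the test called 10.0% and 10.9% of 18523 genes. Of the 24, Ifit3 entered this fit through its levels outside GMP and lay at 0.065 to 0.309 CPM in GMP, so its difference is not used. Among the other 23, the largest differences were in Ifi44 (-2.42 ± 0.36 on the log2 scale, edgeR adjusted p = 0.000488) and Usp18 (-1.45 ± 0.27, edgeR adjusted p = 0.00201). Ifi44 was also low in GMP, with means of 0.61 TPM in WT and 0.214 in KO, and its change there did not pass. Irf7 differed by -1.31 ± 0.15 (edgeR adjusted p = 5.85e-05). Of the sensors, Dhx58 was the only one called (-0.67 ± 0.11, edgeR adjusted p = 0.00119).

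From CMP to MEP the effect was larger for 9 members and smaller for 6 (5.67% and 7.37% of all genes). Ifitm3 (1.10 ± 0.14, edgeR adjusted p = 0.000225), Oasl2 (0.97 ± 0.17, edgeR adjusted p = 0.00224) and Gbp2 (0.88 ± 0.20, edgeR adjusted p = 0.0123) were affected more in MEP, as were Gbp3, Igtp, Irgm1 and Irgm2 among the GTPases. Oasl1 (-1.09 ± 0.11, edgeR adjusted p = 3.52e-05), Mx1 (-1.02 ± 0.30, edgeR adjusted p = 0.0475) and Oas2 (-1.0 ± 0.30, edgeR adjusted p = 0.0515) were affected less. None of the 5 sensors or 4 IFIT genes passed in this comparison. The number called was 9 without mouse 301, 9 without 304 and 8 without 309, against 15 with all mice.

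From GMP to MEP the effect was larger for 30 members and smaller for 2 (12.2% and 14.6% of all genes). All 9 genes of the ISG15 group and 6 of 8 GTPases were among the 30. Ifit1 (2.01 ± 0.31, edgeR adjusted p = 0.000422), Ifi44 (1.96 ± 0.37, edgeR adjusted p = 0.00198) and Oasl2 (1.83 ± 0.17, edgeR adjusted p = 8.33e-06) differed most. In WT GMP, Ifit1 and Ifi44 had means of only 0.68 and 0.61 TPM. The 2 that were affected less in MEP were Oasl1 (-0.55 ± 0.11, edgeR adjusted p = 0.0033) and Cmpk2 (-0.48 ± 0.09, edgeR adjusted p = 0.00137). These 3 comparisons share libraries and are not independent of each other. Without the mouse as a block they called 4, 2 and 16 members.

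**Figure D3:**
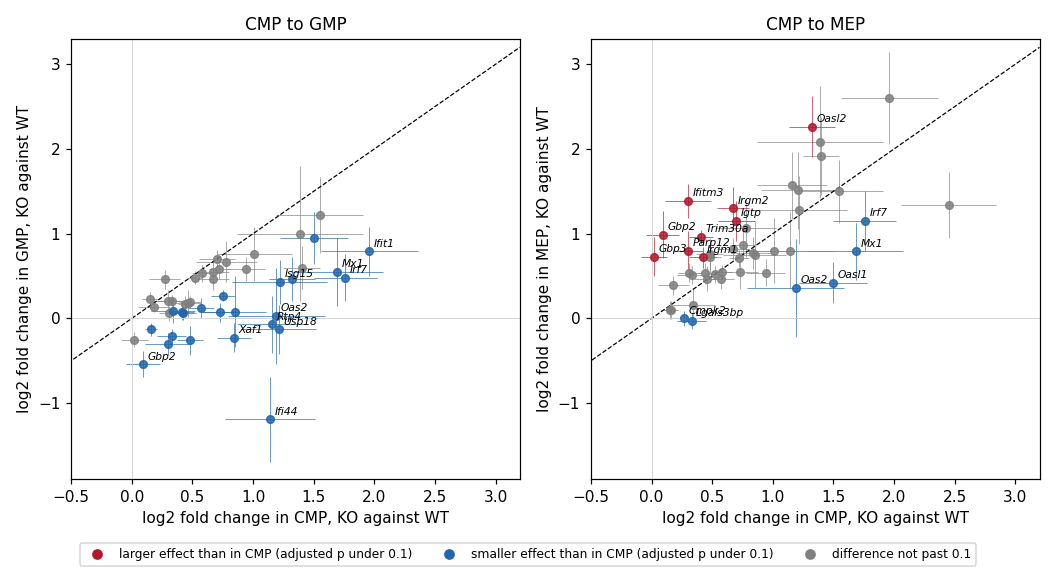
Log2 fold change of KO against WT in CMP (horizontal axis) against that in GMP (left) and MEP (right), 1 point per gene with bars of 1 standard error, and a dashed line where both are equal. Red points had a larger and blue points a smaller effect than in CMP at an adjusted p of 0.1, with some of them labelled. There are 0 red and 23 blue for GMP, and 9 red and 6 blue for MEP. Genes not tested in GMP or MEP, such as Ifit3 in GMP, are not drawn there.

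The members also differed between the populations of WT mice. In WT GMP 36 of 46 members tested were lower than in WT CMP and 1, Gbp3, was higher, where 24.2% of 17476 genes were lower and 21.0% higher. In WT MEP 27 were lower than in CMP and 12 higher (38.0% and 34.4% of all genes). Median WT levels of the 47 members were 14.6 TPM in CMP, 8.55 in GMP and 9.79 in MEP, and those of KO mice 23.5, 8.69 and 18. In LT-HSC, whose libraries were made with another kit and are only set beside the rest, they were 32.8 in WT and 40.1 in KO.

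Irf7, Isg20 and Oasl1 were lower in GMP than in CMP but higher in MEP. In TPM, which is per transcript length, WT Irf7 was 10.9 ± 4.11 (SD, 3 mice) for CMP, 3.3 ± 1.25 for GMP and 17.7 ± 10.3 for MEP, with a log2 difference from CMP of -1.63 ± 0.13 (SE) in GMP and 0.92 ± 0.12 in MEP (edgeR adjusted p = 2e-05 and 0.000124). Isg20 was 22.7 ± 4.21 TPM in CMP, 8.56 ± 1.02 in GMP and 95.2 ± 26.2 in MEP, and Oasl1 was 5.09 ± 2.02, 2.26 ± 1.13 and 19.8 ± 8.93. Both were higher in MEP than in CMP, by 2.32 ± 0.11 and 2.34 ± 0.09 (edgeR adjusted p = 3.86e-07 and 1.42e-07). Gbp3 ran the other way at 32.8 ± 3.72 TPM for CMP, 54.8 ± 9.48 for GMP and 3.83 ± 0.791 for MEP. The 3 highest members of WT CMP were Ifitm3 (216 ± 51 TPM), Ifi27 (144 ± 37.4) and Lgals3bp (115 ± 21.8), whose order cannot be read beyond their spread. In WT LT-HSC Ifitm3 stood at 1671 ± 148 TPM (SD, 2 samples), above Lgals3bp (335 ± 30.9) and Ifi27 (299 ± 64.2).

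**Figure D4:**
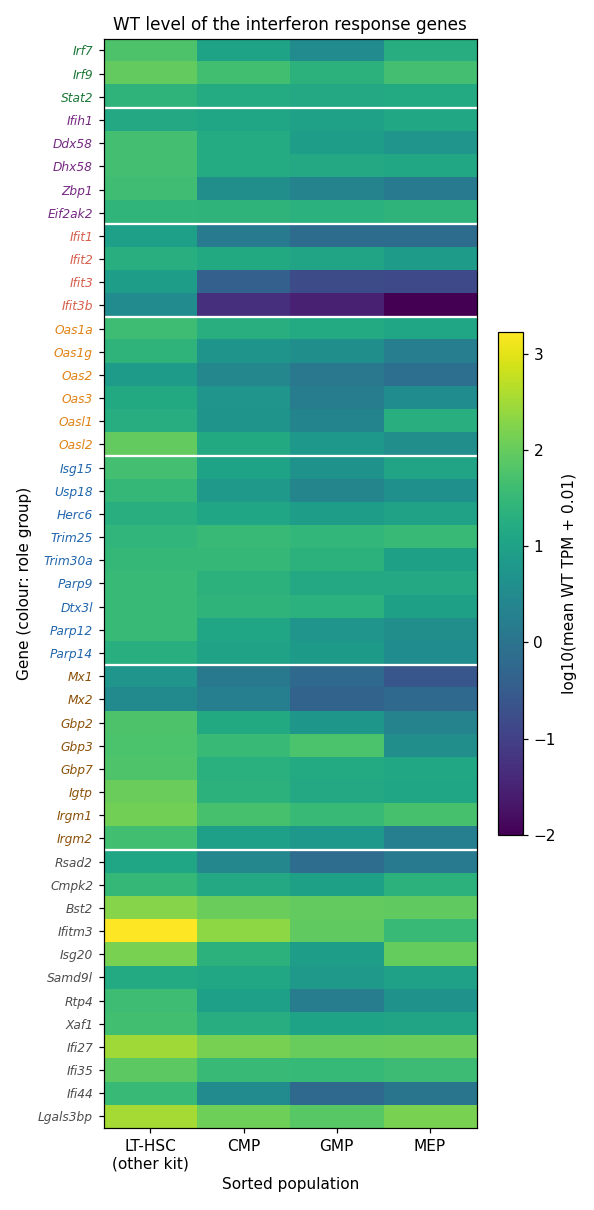
Mean WT level of each member (rows, coloured by role) in LT-HSC, CMP, GMP and MEP, as log10(TPM + 0.01) from dark (low) to yellow (high). Ifitm3 in LT-HSC is the brightest cell at 1671 TPM, and of the 3 precursor populations CMP is the highest for 37 genes, MEP for 9 and GMP for 1.

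The spread between mice ran through the members together. For each mouse the difference of log2(CPM + 0.5) from the WT mean was taken per gene. Its median over the 47 members in CMP was -0.09, 0.26 and -0.24 in WT mice 300, 305 and 309, and 0.60, 0.84 and 0.64 in KO mice 301, 304 and 308. In MEP these medians were -0.12, 0.37 and -0.25 for WT and 0.53, 0.97 and 0.58 in KO. In both populations each KO mouse was thus above each WT mouse. In GMP they were -0.06, 0.23 and -0.16 for WT and 0.12, 0.40 and 0.12 in KO, so that WT mouse 305 exceeded 2 KO mice. Over all tested genes the same median stayed between -0.02 and 0.02 in every precursor library. Mouse 305 was the highest WT mouse for 39 members in CMP, 38 in GMP and 45 in MEP, and mouse 304 the highest KO mouse for 43, 39 and 43. These are the 2 mice with few counts on Y-linked genes. Between them alone, KO mouse 304 exceeded WT mouse 305 by a median log2 difference of 0.61 for CMP, 0.25 for GMP and 0.55 for MEP, and among the other 4 mice the median difference was 0.72, 0.20 and 0.77. In LT-HSC the medians were -0.05 and 0.05 in WT samples S245 and S269 and 0.67 and 0.38 in KO samples S244 and S270.

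**Figure D5:**
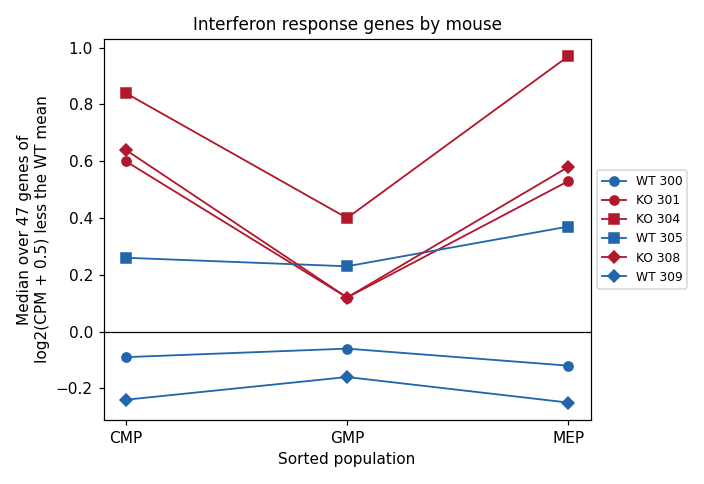
Median over the 47 genes of log2(CPM + 0.5) less the WT mean, for each precursor mouse in each population, with WT in blue and KO in red. All KO mice are above all WT mice in CMP and MEP, and in GMP WT mouse 305 at 0.23 lies above KO mice 301 and 308 at 0.12.

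The genes that stand before the response did not move as the members did. Of 15 receptor and signalling genes, CMP had 0 rises and 1 fall, GMP 3 and 1, and MEP 0 and 2 of 14 tested, where 17.5% of all genes rose and 16.3% fell in GMP. Ifnar1, Ifnar2, Jak1 and Tyk2, the receptor chains and their kinases, passed in no population. Irf8, which drives monocytes and dendritic cells, fell by 1.45 in CMP and by 1.37 in GMP. Another list held 13 genes of nucleic acid sensing, namely receptors, adaptors, kinases and Adar. Of these, CMP had 3 rises and 3 falls, GMP 5 and 5, and MEP 5 and 3 of 12 tested. Over all genes 10.6% rose and 12.8% fell in CMP, and 14% and 15.4% in MEP. Tlr7, the endosomal receptor for single-stranded RNA, rose by 2.34 ± 0.26 in CMP and 2.01 ± 0.17 in GMP (edgeR adjusted p = 0.000485 and 5.07e-05), while Tmem173 (STING) fell by 1.35 in GMP. The interferons themselves were nearly absent. Ifnb1 and 11 Ifna genes together held at most 3 estimated counts in a CMP library, 0 in GMP, 1 in MEP and 76 in LT-HSC. In LT-HSC, Ifnb1, Ifna4 and Ifna15 had means of 0.835, 0.57 and 0.889 TPM in WT and 0 in KO. Of these interferons only Ifna5 had the higher mean in KO LT-HSC, at 0.0904 TPM against 0.0462 in WT.

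Of 55 other interferon-induced genes, of which 54 could be paired with the annotation, 22 of 50 tested rose and 3 fell in CMP, 12 of 49 rose and 15 fell in GMP, and 18 of 46 rose and 2 fell in MEP. Over all genes the shares higher and lower were 10.6% and 12.8% for CMP, 17.5% and 16.3% for GMP and 14% and 15.4% for MEP. In LT-HSC 0 of 53 passed the edgeR test. Ifitm1, a neighbour and relative of Ifitm3, stood out among them at 213 ± 52.6 TPM (SD, 3 mice) in WT CMP and 1701 ± 144 in KO CMP. It rose by 2.85 ± 0.16 (SE) in CMP, 2.06 ± 0.09 in GMP and 3.52 ± 0.50 in MEP (edgeR adjusted p = 3.74e-05, 3.07e-06 and 0.00192). Gbp9 and Gbp6, relatives of Gbp2, rose by 3.48 ± 0.22 and 2.91 ± 0.56 in CMP (edgeR adjusted p = 4.03e-05 and 0.00758). In MEP Slfn9 rose by 1.93 ± 0.14 (edgeR adjusted p = 8.06e-05), and in GMP Phf11b fell by 1.70.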

How the data were processed

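The members and lists were chosen with earlier results of these data known. The authors aligned reads to the Ensembl 84 transcripts with kallisto and deposited, for each transcript and library, an estimated count (fragments shared by transcripts are split between them), a TPM value and an effective length. LT-HSC libraries were made with SMART-Seq v4 and the others with TruSeq, and the submitters' processing notes name kallisto, DESeq2 and mm10.

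Of 115088 transcripts, 114200 (99.2%) were paired with genes of GENCODE vM21 (GRCm38), and 0.233 to 0.363% of the estimated counts fell on the rest and were left out. The deposited values were then added up over the transcripts of a gene, and the sums of estimated counts rounded. Each population was fitted apart in edgeR 4.0.16 (R 4.3.3; TMM, filterByExpr, quasi-likelihood F-test, genotype only), with Benjamini-Hochberg adjustment over all genes tested and a threshold of 0.1. CPM are TMM-normalised within a population, so levels are compared between genes or populations only in TPM. The median standard error of the members was 0.14 in CMP, 0.14 in GMP, 0.20 in MEP and 0.30 in LT-HSC. These p-values measure the spread between mice in the precursors, and in LT-HSC that between samples not stated to be single mice. Differences of the KO effect were tested over all 18 precursor libraries jointly, blocking on mouse, and WT populations likewise over 9. Words of 31 bases shared with other genes were counted in the annotated transcripts. The steps were tested on simulated counts.

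All transcription factors and sensors are named, and in CMP, GMP and MEP the 5 largest rises and 5 largest falls among members past the threshold, at 1 TPM or more in a genotype and without overlap of the genotypes. Also named are the 3 highest members of each WT population, the 3 largest and 3 lowest changes in LT-HSC, the 3 largest differences in each direction between populations, and up to 3 genes per other list. Members named beyond this rule were chosen after their values were seen. Alternatives tried were a length offset, size factors by median of ratios, the fit without a filter, DESeq2 1.42.0 with and without the length offset, limma 3.58.1 on log2(TPM + 0.1) and log2(TPM + 1), 1 fit of all precursor libraries, blocks, and leaving out each mouse. A fit of mice 300, 301, 308 and 309 was added after seeing the data.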

Additional observations from a re-analysis of the deposited data

Results flagged for a closer look

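The KO effect on the interferon response genes differed between populations by a test of the difference itself, the interaction of genotype and population with the mouse as a block (edgeR, adjusted p under 0.1). It differed for 24 members from CMP to GMP, of which 23 passed the filter for low counts in both populations and 1, Ifit3, did so in CMP but not in GMP. The largest differences among the 23 were in Ifi44 (-2.42 on the log2 scale, from 1.14 to -1.19) and Usp18 (-1.45, from 1.21 to -0.13). Ifi44 was low in GMP, with means of 0.61 TPM in WT and 0.214 in KO. From CMP to MEP it differed for 15 members, downward in Oasl1 (-1.09), Mx1 (-1.02) and Oas2 (-1.0) and upward in Ifitm3 (1.10), Oasl2 (0.97) and Gbp2 (0.88). From GMP to MEP it differed for 32 members, downward in Oasl1 (-0.55) and Cmpk2 (-0.48) and upward in Ifit1 (2.01), Ifi44 (1.96) and Oasl2 (1.83). Cmpk2 was thus higher in KO GMP (0.46) while its value in MEP was 0.00.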

How the results depend on the processing

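In CMP 32 to 44 members rose under the other settings and 28 to 43 with each mouse left out, and 0 fell in all of them. In MEP 30 to 39 rose, 22 to 42 with each mouse left out, and 0 fell. Over all genes 1598 to 2517 rose in CMP under the other settings and 1288 to 1723 with each mouse left out. For MEP these were 1726 to 2532 and 1470 to 2521. In GMP, against 16 rises and 3 falls, 8 rose with limma on log2(TPM + 0.1) and 8 on log2(TPM + 1), and 7 to 23 with each mouse left out. Over all genes 1166, 1168 and 1971 to 2554 rose in these GMP fits, against 2874. Falls in GMP were 0 in 1 fit of the 18 precursor libraries, 1 with mice 300, 301, 308 and 309, and 1 to 5 with each mouse left out. In LT-HSC, against 0, DESeq2 called 2 members higher with the length offset and 2 without, and edgeR without a filter called 3. Of 38182 genes these settings called 82, 91 and 109 higher. Differences of the KO effect, 24, 15 and 32, were 4, 2 and 16 without the replicate block, and with each mouse left out 18 to 27, 8 to 21 and 27 to 32. The members that differed between WT GMP and CMP, 37, were 23 without the replicate block and 31 to 34 with each mouse left out. The causes were not tested.

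WT and KO mice share no replicate number. The order of columns in the study's own tables pairs 300 with 301, 305 with 304 and 309 with 308, and deviations from the genotype mean correlated across genes by 0.06 to 0.59 within these pairs. The lowest was 300 with 301 in MEP (0.06), where 300 with 308 reached 0.39, and the pairs of LT-HSC were at 0.20. With a replicate block by these pairs 44 members rose in CMP, 39 in MEP, 25 in GMP and 0 in LT-HSC, and 6 fell in GMP. Over all genes 2517, 2532, 3719 and 37 rose in the same fits. This order is not a stated pairing.

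TPM are shares of a fixed total per library. On that scale the median log2 fold change of all genes stood at 0.09 for CMP, -0.13 for GMP and -0.29 for LT-HSC with log2(TPM + 1), against 0.00, -0.01 and -0.16 in edgeR. Of the called genes 1168 of 4264 were higher in KO GMP and 2468 of 3479 in KO CMP, against 2874 of 5550 and 1830 of 4030 in edgeR. In GMP the medians of the GTPases and the other effectors turned to -0.02 and -0.07 with log2(TPM + 0.1), and in LT-HSC that of the sensors to -0.09. The median of the members stayed above 0 under all settings, at 0.57 to 0.78 in CMP, 0.03 to 0.28 in GMP, 0.61 to 1.0 in MEP and 0.28 to 0.69 in LT-HSC. With 2 samples per genotype the standard errors in LT-HSC limit what can be called.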

Other observations

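The members belong to families whose other genes did not all move with them, as seen after their values were known. Of the guanylate-binding proteins, Gbp5 followed Gbp2 and Gbp3, at a log2 fold change of 0.16 ± 0.10 (SE) in CMP, -0.54 ± 0.10 in GMP and 1.46 ± 0.22 in MEP (edgeR adjusted p = 0.348, 0.00442 and 0.00237). Gbp6 and Gbp9 instead rose in all 3 precursor populations, by 2.91, 1.69 and 1.49 and by 3.48, 2.53 and 1.65, from WT means of 0.824 TPM or less. In the IFITM family, Ifitm1 rose in all 3, Ifitm3 passed in MEP, and Ifitm2, at a WT mean of 584 TPM in CMP, 535 in GMP and 322 in MEP, passed in none (-0.01 ± 0.06, 0.08 ± 0.10 and -0.24 ± 0.10, edgeR adjusted p = 0.963, 0.63 and 0.132). The chemokine Cxcl10 rose by 1.31 ± 0.36 in CMP and 1.60 ± 0.35 in GMP (edgeR adjusted p = 0.0364 and 0.0081) at KO means of 1.59 and 2.71 TPM. In the 4 LT-HSC libraries, Xist held 2901 to 4075 counts, and Y-linked genes held 1613 in WT sample S245 and 174 to 440 in the others.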
